A study of Mus musculus with 30 samples.

Results

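Lipid transport in sorted mouse astrocytes was examined through 10 genes: the apolipoproteins Apoe, Clu and Apod, the efflux transporters Abca1 and Abcg1, the acyltransferase Lcat, the lipase Lpl, the lipid droplet coat gene Plin2, and the fatty acid binding genes Fabp5 and Fabp7. They were chosen by name, and each was read from the probe set that carried its symbol alone and had the highest mean over the arrays. All 10 passed the filter on dim genes that kept 15726 of 18193 genes on the array. The values are deposited array intensities, given here as log2, so a difference of 1 is a 2-fold change.

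The 30 arrays measured astrocytes sorted by green fluorescence from male young adult mice of the strain Tg(Aldh1l1-eGFP) OFC789Gsat on a Swiss Webster background, in which the Aldh1l1 promoter drives eGFP, so every group carried the transgene and the sort took cells in which that promoter was active. Stroke was produced by transient middle cerebral artery occlusion (MCAO), in which the artery was closed for 1 h and then reperfused, and astrocytes were collected at 1 day (n = 5), 3 days (n = 3) and 7 days (n = 3). Sham surgery gave the controls at 1 day (n = 4), 3 days (n = 3) and 7 days (n = 3). Lipopolysaccharide (LPS) from Escherichia coli O55:B55 was injected intraperitoneally at 5 mg/kg (n = 5) against endotoxin-free saline (n = 4), with collection at 1 day. Brains were dissociated with papain, and about 20 ng of RNA per sample went through an amplification of 2 cycles before hybridisation. Titles number the arrays as biological replicates but do not tie each to its own mouse, so the p-values measure the spread between arrays.

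Astrocytes are the main makers of lipoprotein particles in the brain. ApoE, with clusterin and apolipoprotein D, is secreted and takes up cholesterol and phospholipid that ABCA1 and ABCG1 export through the plasma membrane, and LCAT then esterifies the cholesterol so that it moves into the core of the particle. Lipoprotein lipase releases fatty acids from triglyceride, fatty acid binding proteins carry them inside the cell, and perilipin 2 coats the droplets in which neutral lipid is stored. Liver X receptors, heterodimers with retinoid X receptors, switch on Abca1, Abcg1 and Apoe when sterols accumulate, and PPAR receptors respond to fatty acids and are known to act on Plin2.

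At 1 day after stroke 2 of the 10 genes passed the test: Plin2 rose and Lcat fell. No gene of the 10 passed at 3 days or 7 days, or after LPS. The promoters of Plin2 and Lcat are shown because these genes carry that result. Each window runs from 250 bases before to 50 bases after the gene's start and is taken from RefSeq (GRCm38.p6). The Plin2 window lies at chr4:86670010-86670309 and the Lcat window at chr8:105943353-105943652, both on the minus strand, 5′ to 3′. Capitals mark matches to the motifs searched on both strands.
Plin2: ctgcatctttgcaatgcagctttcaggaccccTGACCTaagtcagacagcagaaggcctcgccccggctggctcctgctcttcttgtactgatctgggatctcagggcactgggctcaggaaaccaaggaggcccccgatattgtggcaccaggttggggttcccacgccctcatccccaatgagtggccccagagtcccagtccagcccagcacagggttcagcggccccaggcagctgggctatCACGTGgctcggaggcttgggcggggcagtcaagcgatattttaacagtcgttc
Lcat: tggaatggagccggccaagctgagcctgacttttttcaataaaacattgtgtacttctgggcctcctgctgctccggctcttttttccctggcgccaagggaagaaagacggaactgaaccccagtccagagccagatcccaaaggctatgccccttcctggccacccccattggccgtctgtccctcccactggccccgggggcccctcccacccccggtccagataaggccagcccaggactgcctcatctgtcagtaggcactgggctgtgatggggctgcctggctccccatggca

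The motifs were AGGTCA, a hexamer bound by nuclear receptors, ACGTG, the core of the hypoxia response element, and TTCCNGGAA, a STAT site. The Plin2 window held AGGTCA 1 time, read on the other strand as TGACCT, and ACGTG 2 times, on either strand and overlapping within CACGTG. The Lcat window held no match to any of them. Among 32851 promoter windows of the same length, 16.3% held AGGTCA, 19.6% held ACGTG and 1.15% held TTCCNGGAA. Windows were found for 6 of the 10 genes (Apoe, Apod, Abca1, Lcat, Plin2 and Fabp7), and 2 of these 6 held AGGTCA, 2 held ACGTG and 0 held TTCCNGGAA. A match is a description of letters and not a site.

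Some features of the arrays touch these genes. On 16 arrays the highest intensity lay between 31338 and 35553, and on the other 14 between 20222 and 26595. All 1-day surgery arrays belonged to the first set and all 7-day arrays to the second, while the 3-day, LPS and saline groups were mixed: MCAO 3 d array 3, sham 3 d array 3, LPS arrays 1 to 3 and saline arrays 1 and 2 had a maximum above 30000. No label names this split, and for levels across days it cannot be told apart from time. LPS array 5 stood apart from the rest, with a median intensity of 94 against 68 to 73 on the other arrays. It also had the lowest astrocyte marker mean (12.43) and the highest neutrophil and monocyte marker mean (6.41) of all arrays. The mean log2 intensity of 11 astrocyte markers was 12.43 to 13.68 over the arrays, and each was above log2 5 in every group mean. That level does not measure the purity of the sort, because most markers of other cells also lay above it. Oligodendrocyte marker means were 7.10 to 10.64 over the arrays. Gfap, the intermediate filament gene of reactive astrocytes, rose by 1.69 ± 0.40 after MCAO at 1 day (SE; adjusted p = 0.00486) and by 1.87 ± 0.40 after LPS (adjusted p = 0.00747). Aldh1l1 itself had folds of -0.31 after MCAO at 1 day and 0.07 after LPS, neither past the test. In bulk RNA of sorted cells, fewer cells of a type and less RNA per cell cannot be told apart.

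**Figure D1:**
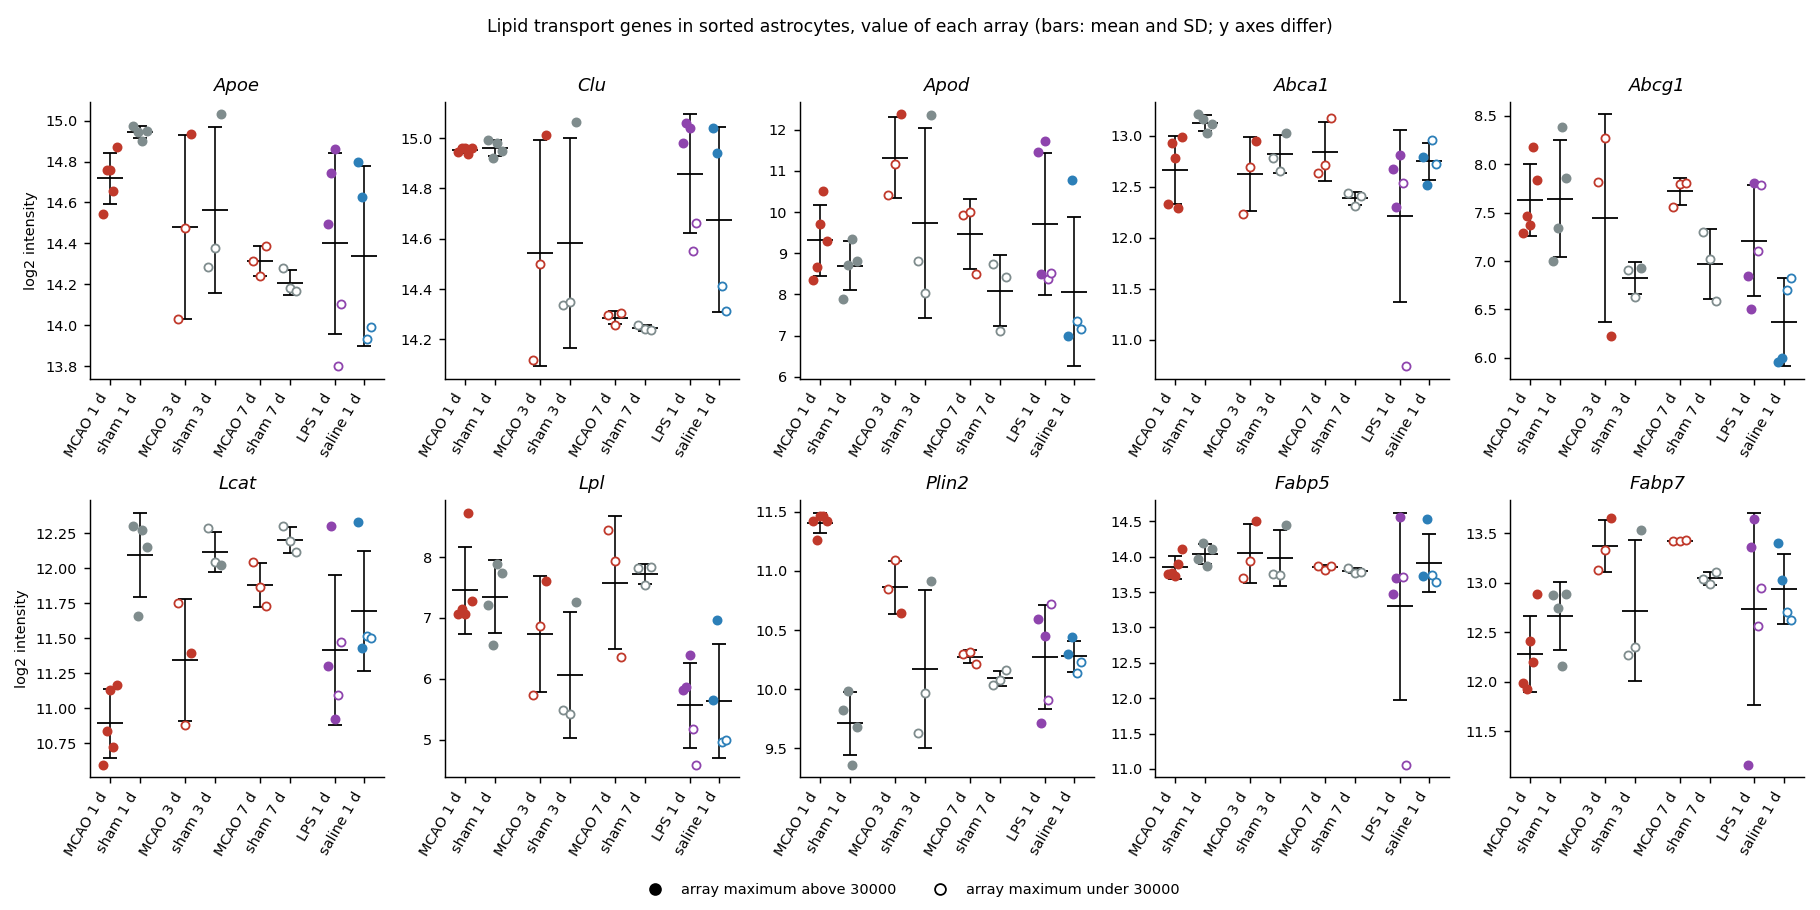
Log2 intensity of the 10 genes on each of the 30 arrays, with injured or treated groups left of their controls, black bars for group mean and SD, and fill for the array maximum (filled above 30000, open below). Plin2 in MCAO 1 d (11.26 to 11.47) lies above every other group's highest value, and Lcat in MCAO 1 d (10.60 to 11.16) lies below all sham arrays.

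Plin2 encodes perilipin 2, the coat protein of lipid droplets in cells outside fat tissue. Its log2 intensities at 1 day were 11.42, 11.26, 11.47, 11.46 and 11.42 in the MCAO arrays, against 9.82, 9.98, 9.36 and 9.68 in the sham arrays. The groups did not overlap, and the lowest MCAO array stood above the highest sham array by more than the whole range of either group. The means were 11.41 ± 0.08 in MCAO and 9.71 ± 0.26 in sham (SD, n = 5 and 4), a log2 fold of 1.69 ± 0.21 (SE), or 3.24-fold, with adjusted p = 3.34e-06 by limma over all 15726 genes. In that comparison 12.7% of all genes passed. The fold stayed between 1.58 and 1.78 and past the threshold in each of 22 other settings.

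Markers of microglia and macrophages, cells that also store lipid droplets, were measured beside it. Their mean log2 intensity over 13 genes was 6.12 to 6.81 in MCAO and 5.97 to 6.51 in sham arrays at 1 day, and 1 of the 13 passed, Cd68, a lysosomal membrane gene of phagocytes, with a log2 fold of 1.98 ± 0.26. Aif1 and Itgam, defining markers of these cells, were under log2 5 in both groups, and Ptprc was under it in sham. Endothelial markers, 9 genes, spanned 7.10 to 9.58 in MCAO and 7.50 to 9.23 in sham arrays, with 1 of 9 (Vwf, 1.57 ± 0.51) past the test. The part of these cells in the Plin2 fold was not tested.

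At 3 days Plin2 was at 10.85, 11.09 and 10.64 in MCAO arrays, against 9.63, 9.97 and 10.92 in sham arrays. Sham array 3 lay among the MCAO arrays while the other two sham arrays lay below all of them. The log2 fold was 0.69 ± 0.25 (SE), with adjusted p = 0.263. Without sham array 3 it was 1.06, with adjusted p = 0.0129.

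At 7 days Plin2 was at 10.30, 10.32 and 10.21 in MCAO arrays and 10.03, 10.08 and 10.16 in sham arrays. These groups did not overlap, but the distance was small: a log2 fold of 0.18 ± 0.25 (SE), with an interval of -0.33 to 0.70 and an adjusted p of 1. The stroke effect at 7 days minus that at 1 day was -1.51 ± 0.33 (SE; adjusted p = 0.032), in a comparison where 0.356% of all genes passed and Plin2 was the 1 gene of the 10. That call was thin: with 1 of its 15 arrays left out the difference stayed between -1.60 and -1.39, yet it passed in 3 of 15 cases (without MCAO 1 d array 2 or 5, or sham 1 d array 2), with adjusted p from 0.043 to 0.107. The effect at 3 days minus that at 1 day was -1.01 ± 0.33 and did not pass (adjusted p = 0.488). In that comparison 0 of the 10 genes and 0.00636% of all genes passed. An unadjusted p under 0.05 was held there by 1 of the 10, Plin2, beside 942 of 15726 genes. From 3 to 7 days 0 of the 10 and 0% of all genes passed in limma. There 0 of the 10 had an unadjusted p under 0.05, beside 274 of 15726 genes.

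After LPS the Plin2 intensities were 10.59, 9.72, 10.45, 9.91 and 10.72, against 10.30, 10.44, 10.14 and 10.23 in saline arrays. The LPS arrays lay on both sides of the saline arrays, and the mean difference was -0.00 ± 0.21 (SE; interval -0.43 to 0.42, adjusted p = 0.998). The LPS effect minus the MCAO effect at 1 day was -1.70 ± 0.29 (SE), with adjusted p = 0.00194, and it passed in each of 30 other settings. Plin2 was the 1 gene of the 10 that passed there, beside 1.39% of all genes. Both control groups of that day were also set side by side. Plin2 averaged 9.71 in sham and 10.28 in saline, with no overlap and a difference of -0.56 that did not pass (adjusted p = 0.133). Of all genes 18.4% did not overlap there, and 7 of 9 endothelial markers were called higher in sham.

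In order of group mean, Plin2 ran from 11.41 in MCAO 1 d and 10.86 in MCAO 3 d through 10.28 in saline, LPS and MCAO 7 d to 10.17 in sham 3 d, 10.09 in sham 7 d and 9.71 in sham 1 d. Neighbours in that order overlapped in 4 of 7 cases. The array values separated MCAO 1 d from MCAO 3 d, MCAO 3 d from saline, and sham 7 d from sham 1 d. The genes whose profile over the 30 arrays was most like that of Plin2 were Nhp2, a component of small nucleolar ribonucleoproteins (Pearson r = 0.895), Clcf1, a cytokine of the interleukin-6 family (0.886), and Adamts5, a metalloproteinase that cleaves aggrecan (0.884). Within groups these correlations were 0.721, 0.487 and 0.460. All points share the array and its maximum, and no test was made.

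Lcat encodes the enzyme that esterifies cholesterol on nascent lipoproteins. Its log2 intensities at 1 day were 10.60, 10.84, 11.13, 10.73 and 11.16 in MCAO arrays, against 12.30, 11.66, 12.28 and 12.15 in sham arrays. Every MCAO array was below every sham array. The mean was 10.89 ± 0.25 in MCAO and 12.10 ± 0.30 in sham (SD, n = 5 and 4), and the log2 fold was -1.20 ± 0.23 (SE), or 2.30-fold lower, with adjusted p = 0.000693 in limma. The fold stayed between -1.35 and -1.08 and past the threshold in each of 22 other settings.

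The astrocyte markers were measured in the same arrays. Their mean log2 intensity, with Gfap included, was 13.39 to 13.53 in MCAO and 13.52 to 13.62 in sham, and their median fold was -0.22. Of the 11 markers 1 rose, Gfap (1.69), and 2 fell, Slc1a3, a glutamate transporter (-0.52), and Gjb6, a gap junction connexin (-0.63). Oligodendrocyte markers spanned 8.50 to 10.33 in MCAO and 8.56 to 10.64 in sham, and 2 of 10 fell, Aspa (-1.17) and Cnp (-0.69). Of all genes 12.7% passed in that comparison. The part of any of these lists in the Lcat fold was not tested.

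At 3 days Lcat was at 11.75, 10.88 and 11.40 in MCAO arrays and 12.28, 12.04 and 12.02 in sham arrays. The groups again did not overlap, and the log2 fold of -0.77 ± 0.28 did not pass (adjusted p = 0.260). At 7 days the values were 12.05, 11.86 and 11.73 in MCAO arrays against 12.30, 12.19 and 12.11 in sham arrays, without overlap and with a log2 fold of -0.32 ± 0.28 (SE, adjusted p = 1). All 11 MCAO arrays thus lay below all sham arrays of their own day, while the test passed at 1 day alone. Groups without overlap were common, at 27.3% of all genes at 1 day, 12.7% at 3 days and 16.3% at 7 days. The difference between the effects at 7 days and 1 day was 0.88 ± 0.36 and did not pass (adjusted p = 0.432).

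LPS arrays had Lcat at 11.30, 12.30, 10.92, 11.09 and 11.47, against 12.33, 11.43, 11.52 and 11.50 in saline arrays. The groups overlapped, and array 2 of the LPS group and array 1 of the saline group stood high. The log2 fold was -0.28 ± 0.23 (SE, adjusted p = 0.597). The LPS effect minus the MCAO effect was 0.93 ± 0.33, with adjusted p = 0.172, so the 2 effects on Lcat were not shown to differ. Over all groups Lcat ran from 12.20 in sham 7 d to 10.89 in MCAO 1 d, and all 7 pairs of neighbours in that order overlapped. The genes most like it over the 30 arrays were Nkain4 (Pearson r = 0.864; within groups 0.679), Cnnm3 (0.850; 0.671) and Hhatl (0.844; 0.582), given as a description.

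**Figure D2:**
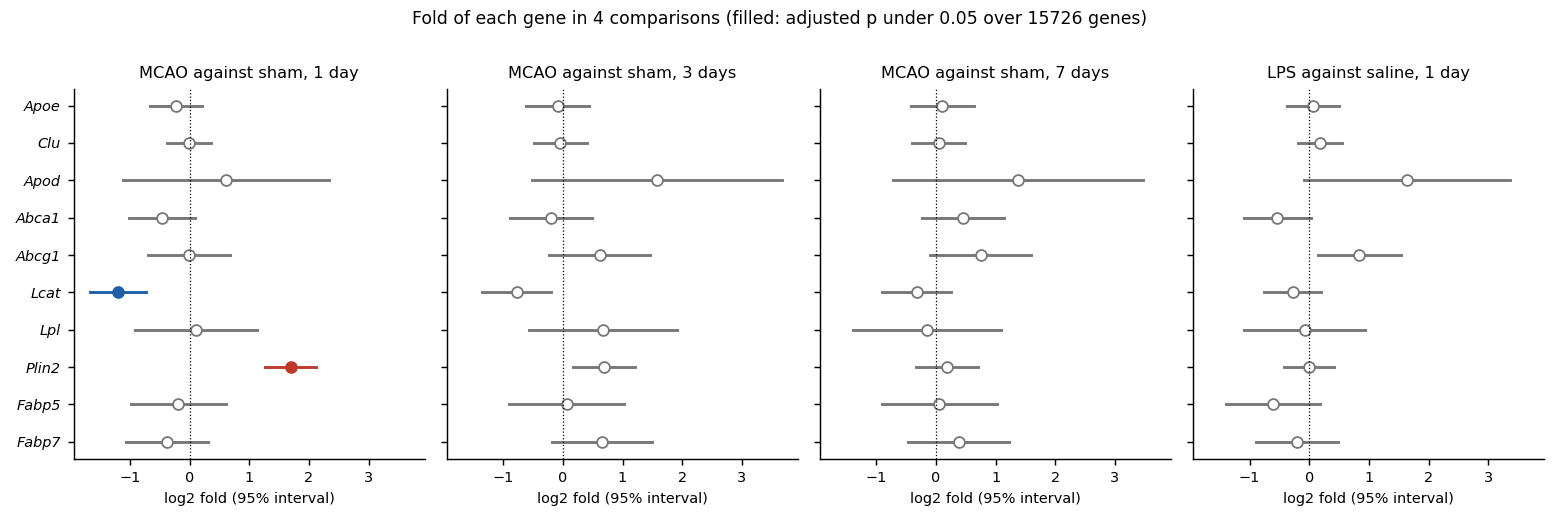
Log2 fold of each gene with its 95% interval for MCAO against sham at 1, 3 and 7 days and LPS against saline at 1 day; filled points passed at adjusted p under 0.05 over 15726 genes. Only Plin2 (1.69) and Lcat (-1.20) at 1 day after MCAO are filled, and Apod has the widest intervals.

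Over the 10 genes the count of 2 called at 1 day after MCAO stood beside 12.7% of all genes, so the share of the set was near that of the array as a whole. The median fold of the 10 was -0.10, beside -0.05 over all genes. The array values did not overlap for 4 of the 10 (Apoe, Abca1, Lcat and Plin2), beside 27.3% of all genes. At 3 days 0 of the 10 passed, beside 0.674% of all genes. An unadjusted p under 0.05 was held by 2 (Plin2 and Lcat), beside 1499 of 15726 genes. The groups did not overlap for 1 (Lcat), beside 12.7% of all genes. At 7 days 0 passed, beside 0.0254% of all genes, and 0 had an unadjusted p under 0.05, beside 412 of 15726 genes. Still, 5 of the 10 did not overlap (Abca1, Abcg1, Lcat, Plin2 and Fabp7), beside 16.3% of all genes. After LPS 0 passed, beside 3.11% of all genes, and 1 had an unadjusted p under 0.05 (Abcg1), beside 2572 of 15726 genes. The count without overlap was 0, beside 2.75% of all genes. The median folds of the 10 were 0.34 at 3 days, 0.14 at 7 days and -0.04 after LPS, beside 0.01, -0.01 and 0.07 over all genes.

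Apoe, the main apolipoprotein of the brain and a ligand of the LDL receptor family, was at 14.54, 14.76, 14.76, 14.66 and 14.87 in MCAO 1 d arrays, against 14.98, 14.95, 14.90 and 14.95 in sham arrays. The 2 groups were separate by a narrow margin, and the log2 fold of -0.23 ± 0.21 (SE) did not pass (adjusted p = 0.646). The folds were -0.09 ± 0.26 at 3 days, 0.11 ± 0.26 at 7 days and 0.06 ± 0.21 after LPS, with overlapping groups and none past the test (adjusted p = 0.999, 1 and 0.917 in that order).

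Clu encodes clusterin, an extracellular chaperone and apolipoprotein. Its values were 14.94 to 14.96 in MCAO 1 d arrays and 14.92 to 14.99 in sham 1 d arrays. The folds of Clu were -0.01 ± 0.18, -0.04 ± 0.22 and 0.04 ± 0.22 on the successive days after MCAO, the LPS fold was 0.18 ± 0.18, and none passed. The 95% interval at 1 day was -0.37 to 0.35. The other 3 probe sets of Clu gave folds of 0.03, 0.01 and -0.16 at 1 day after MCAO.

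Both genes sat at the top of the arrays' scale. Clu was at 87.4% to 100% of the highest intensity on its array and was the brightest probe set on 8 of the 30 arrays. Apoe was at 58.8% to 100% and the brightest on 2. Clu was at 14.92 to 15.06 on the 16 arrays with a maximum above 30000 and at 14.12 to 14.66 on the other 14. Since its value is nearly the maximum itself, its levels cannot be told apart from that split. Apoe did not overlap between these sets either, at 14.49 to 15.03 on the first and 13.80 to 14.47 on the second. Its levels cannot be told apart from the split as well. Fabp5, shown beside them, was at 8.02% to 75.0% of the maximum. Whether a signal so near the maximum still tracks RNA was not tested.

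**Figure D3:**
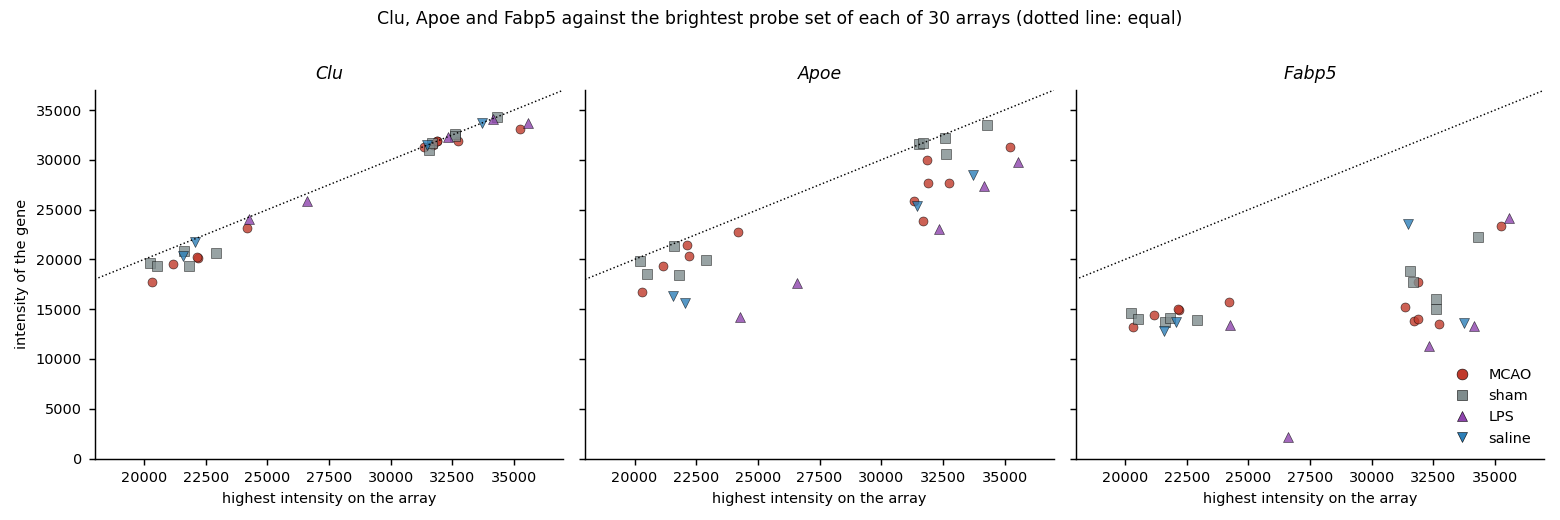
Intensity of Clu, Apoe and Fabp5 against the highest intensity on the same array, 1 point per array, with a dotted line where the gene is itself the brightest probe set. Clu lies on or just under the line on all 30 arrays (87.4% to 100% of the maximum), Apoe lies below it on most, and Fabp5 reaches 75.0% at most.

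Apod, a lipocalin that binds small lipids and is made by astrocytes, oligodendrocytes and fibroblast-like cells of the meninges, had the largest standard errors of the 10 genes. At 3 days it was at 10.42, 11.15 and 12.37 in MCAO arrays, against 8.82, 8.04 and 12.36 in sham arrays. Sham array 3 was as high as the highest MCAO array, and the other two were below all 3 MCAO arrays. The log2 fold of 1.58 ± 1.02 did not pass (adjusted p = 0.766).

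After LPS Apod was at 11.46, 8.49, 11.72, 8.38 and 8.52, against 6.99, 10.78, 7.36 and 7.15 in saline arrays. Arrays 1 and 3 of the LPS group and array 2 of the saline group were high, and the fold of 1.64 ± 0.84 did not pass (adjusted p = 0.336). At 7 days the values were 9.93, 10.003 and 8.49 in MCAO arrays and 8.73, 7.11 and 8.43 in sham arrays, with a fold of 1.38 ± 1.02. At 1 day the fold was 0.61 ± 0.84, with 8.35 to 10.51 in MCAO and 7.90 to 9.35 in sham arrays. All 4 folds were above 0 and none passed, with adjusted p of 0.807 at 1 day and 1 at 7 days.

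Markers of fibroblasts and meninges were set beside Apod array by array. The mean log2 intensity of these 8 genes was 7.32, 9.47 and 9.82 in MCAO 3 d arrays, against 8.003, 7.67 and 10.03 in sham 3 d arrays. MCAO 3 d array 1 went another way, with Apod above sham arrays 1 and 2 but the marker mean below both. Its oligodendrocyte marker mean was 9.98. It was 8.35, 7.66, 8.80, 7.02 and 7.26 in LPS arrays, against 6.46, 8.02, 6.80 and 6.78 in saline arrays. In 8 of 8 groups the array highest for Apod was also the highest for this list. The same held in 7 of 8 groups for the neuronal list and for the pericyte list, and in 6 for oligodendrocytes. It held in 5 for endothelial cells and for oligodendrocyte precursors, and in 4 for microglia and macrophages. Ependymal cells and neural progenitors had 3 each, and astrocytes and neutrophils 2 each. In limma 0 of the 8 genes passed in any of the 4 comparisons. At 7 days 3 of the 8 had an unadjusted p under 0.05, beside 412 of 15726 genes. All 8 had a group mean above log2 5 except Lum in sham 1 d. The part of those cells in the Apod values was not tested.

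**Figure D4:**
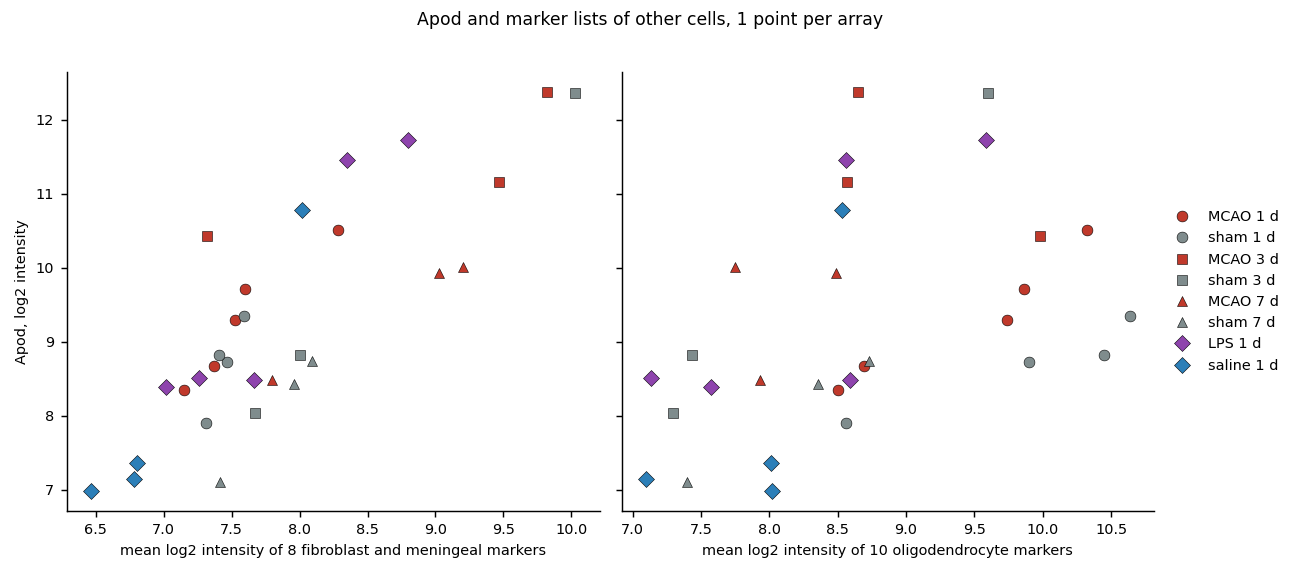
Log2 intensity of Apod against the mean log2 intensity of 8 fibroblast and meningeal markers (left) and 10 oligodendrocyte markers (right), 1 point per array. The arrays with Apod above 12 (MCAO 3 d array 3 and sham 3 d array 3) have fibroblast and meningeal means of 9.82 and 10.03.

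Abca1 exports cholesterol and phospholipid to lipid-poor apolipoproteins. At 1 day it was at 12.33, 12.94, 12.79, 12.29 and 12.99 in MCAO arrays, against 13.21, 13.16, 13.03 and 13.12 in sham arrays. All MCAO arrays lay below all sham arrays, but the log2 fold of -0.46 ± 0.27 (SE) did not pass (adjusted p = 0.342). With weights for array quality it passed at -0.41 (adjusted p = 0.00695), and with the spread taken from the 2 groups alone it passed at -0.46 (adjusted p = 0.0448).

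At 7 days Abca1 was at 12.64, 12.72 and 13.17 in MCAO arrays and 12.44, 12.32 and 12.41 in sham arrays. Here the MCAO arrays lay above the sham arrays, with a fold of 0.45 ± 0.33 (adjusted p = 1). The effect at 7 days minus that at 1 day was 0.92 ± 0.43, with adjusted p = 0.551. After LPS the values were 12.68, 12.31, 12.81, 12.54 and 10.74, against 12.79, 12.52, 12.96 and 12.73 in saline arrays. LPS array 5 was far below the rest, and the fold was -0.54 ± 0.27 with it (adjusted p = 0.335) and -0.17 without it (adjusted p = 0.686). The brightest probe set was used. The 2 dimmer ones had folds of -0.03 and 0.07 at 1 day after MCAO.

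Abcg1 passes sterols to lipoproteins that already carry lipid. After LPS it was at 6.85, 6.51, 7.80, 7.11 and 7.79, against 5.95, 6.0, 6.70 and 6.82 in saline arrays. The groups overlapped, and the log2 fold of 0.84 ± 0.34 did not pass (adjusted p = 0.194). At 7 days it was at 7.56, 7.79 and 7.80 in MCAO arrays, against 7.30, 7.02 and 6.58 in sham arrays, without overlap and with a fold of 0.75 ± 0.41 (adjusted p = 1).

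At 3 days Abcg1 was at 7.82, 8.27 and 6.23 in MCAO arrays and 6.91, 6.63 and 6.93 in sham arrays, with array 3 of the MCAO group below all others. The fold was 0.62 ± 0.41, and at 1 day it was -0.01 ± 0.34. The controls of day 1 differed: Abcg1 averaged 7.65 ± 0.61 in sham and 6.37 ± 0.46 in saline (SD, n = 4 each), a log2 difference of 1.28 ± 0.36 (SE, adjusted p = 0.0357). Abcg1 was the 1 gene of the 10 that passed between sham and saline on the chosen probe sets, beside 5.11% of all genes. In a limma fit of every probe set, a dimmer Abca1 probe set also passed there (0.88 ± 0.21, adjusted p = 0.0169). The brightest Abca1 probe set had a fold of 0.38 and did not. Markers of other cells were also higher in sham than in saline: 7 of 9 endothelial genes passed (median fold 1.97), 4 of 11 neuronal (1.23), 3 of 10 oligodendrocyte (2.16) and 3 of 7 pericyte genes (0.92). The endothelial mean was 7.50 to 9.23 in sham and 5.51 to 6.10 in saline arrays. The part of those cells in Abcg1 was not tested. Of the saline arrays 2 of 4 had a maximum under 30000 and all 4 sham arrays had one above it, while the 2 lowest saline values of Abcg1 came from arrays with a maximum above 30000. The second probe set of Abcg1, a dimmer one, gave folds of 0.21 after LPS and 0.24 for sham against saline.

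Lpl hydrolyses triglyceride in lipoproteins. At 1 day it was at 7.07, 7.15, 7.07, 8.73 and 7.28 in MCAO arrays, against 7.22, 6.55, 7.89 and 7.74 in sham arrays. MCAO array 4 stood above the others, and the fold was 0.11 ± 0.50 (adjusted p = 0.967). In the same array the endothelial marker mean was 9.58 and the neuronal one 8.98, each the highest of its group, and sham array 3, the highest sham array for Lpl, had 9.23 and 9.17. The part of those cells in Lpl was not tested. The folds were 0.68 ± 0.60 at 3 days, -0.15 ± 0.60 at 7 days and -0.08 ± 0.50 after LPS, and the groups overlapped each time. LPS and saline arrays held Lpl at 4.58 to 6.39 and 4.95 to 6.97, near the filter of log2 5.

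Fabp7, the brain fatty acid binding protein of radial glia and astrocytes, was at 13.13, 13.33 and 13.66 in MCAO 3 d arrays, against 12.27, 12.35 and 13.53 in sham 3 d arrays. Sham array 3 was again the one within the MCAO range, and the fold of 0.65 ± 0.41 did not pass (adjusted p = 0.742). The mean log2 intensity of 9 markers of oligodendrocyte precursors was 9.04, 8.52 and 9.15 in the same MCAO arrays, against 7.60, 7.62 and 9.75 in the sham arrays, so sham array 3 was high there too. At 7 days Fabp7 was at 13.42, 13.42 and 13.43 in MCAO arrays and 13.04, 12.98 and 13.11 in sham arrays. These groups were separate, with a fold of 0.38 ± 0.41 (adjusted p = 1). The precursor markers were separate as well, at 8.79 to 9.02 in MCAO and 7.55 to 7.86 in sham arrays, with a median fold of 0.89. Among them 1 of 9 passed, C1ql1, a secreted C1q-like protein, which rose by 1.81 ± 0.21 (SE; adjusted p = 6.21e-05 in limma) and was 1 of the 4 genes called on the array at 7 days. The mean over 6 markers of neural progenitors was 9.39 to 9.57 in MCAO and 9.16 to 9.36 in sham arrays at 7 days. The part of either cell type in the Fabp7 values was not tested. At 1 day it was at 11.93 to 12.88 in MCAO and 12.16 to 12.89 in sham arrays, a fold of -0.38 ± 0.34, and after LPS the fold was -0.20 ± 0.34, with LPS array 1 low at 11.16.

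Fabp5, the epidermal fatty acid binding protein, had folds of -0.19 ± 0.39 at 1 day, 0.07 ± 0.47 at 3 days and 0.05 ± 0.47 at 7 days after MCAO. Its groups overlapped each time, and none passed. After LPS it was at 13.47, 13.70, 14.56, 13.71 and 11.06, against 13.73, 14.53, 13.75 and 13.65 in saline arrays. LPS array 5 alone was low, and the fold was -0.61 ± 0.39 with it and -0.05 without it. The second Fabp5 probe set gave -0.60 at 1 day after MCAO and -0.08 after LPS, so the 2 probe sets differed in size.

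Each 3-day group held 1 array with a maximum above 30000 and 2 under it. With the set of arrays as a covariate 0 of the 10 genes passed at 3 days, as without it, and 150 genes passed in all. Among the arrays with a maximum under 30000, 2 MCAO against 2 sham arrays, 4 of the 10 genes passed, in a fit where 5.51% of all genes did. The covariate and this split were chosen after the values were seen. The folds there were 2.36 for Apod (adjusted p = 0.0285), 1.28 for Abcg1 (0.0211), 1.17 for Plin2 (0.0157) and 0.92 for Fabp7 (0.0124). In the same arrays the precursor markers were at 9.04 and 8.52 in MCAO, against 7.60 and 7.62 in sham, and the oligodendrocyte markers at 9.98 and 8.57 in MCAO, against 7.44 and 7.29 in sham. The part of those cells in the 4 folds was not tested. The single pair with a maximum above 30000, MCAO array 3 and sham array 3, differed by 0.01 for Apod, -0.70 for Abcg1, -0.28 for Plin2 and 0.12 for Fabp7, and it has no spread of its own. For Lcat the arrays under 30000 gave -0.85 and the pair above it -0.62. After LPS the sets gave -0.12 (above 30000) and 0.13 (under 30000) for Plin2, -0.37 and -0.23 for Lcat, 1.67 and 1.20 for Apod and 1.07 and 0.69 for Abcg1.

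Around these 10 genes, 9 lists of lipid handling were counted, none holding one of the 10. Their counts at 1 day after MCAO stand beside 12.7% of all genes called, and shares such as 2 of 11, 2 of 12 or 3 of 14 are near that background. At 1 day after MCAO the list of fatty acid oxidation, the mitochondrial and peroxisomal breakdown of fatty acids, had 7 of 17 genes that fell and 0 that rose, with a median fold of -0.56 beside -0.05 over all genes. Acaa2, which performs the last step of the mitochondrial cycle, fell by 1.18 ± 0.18 (SE; adjusted p = 3.97e-05 in limma), and the log2 folds were -0.96 for Ehhadh, a peroxisomal enzyme, and -0.74 for Acadm, the medium-chain dehydrogenase. Among genes of fatty acid uptake and activation 3 of 14 fell and 0 rose: Slc27a1, a fatty acid transport protein (log2 fold -1.41), and the acyl-CoA synthetases Acsl6 (-0.93) and Acsl3 (-0.92). Among nuclear receptors and their partners 2 of 11 fell, Ppargc1a, a coactivator of mitochondrial genes (-1.43), and Ppara, the fatty acid receptor (-1.21).

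The other 6 lists at 1 day after MCAO had 0 to 3 genes past the test. Among lipases and their partners 1 of 12 rose and 2 fell. Angptl4, a secreted inhibitor of lipoprotein lipase, rose by 0.99 ± 0.30, while G0s2, an inhibitor of adipose triglyceride lipase, fell by 1.70 ± 0.41 and Lmf1, which matures lipoprotein lipase, had a log2 fold of -1.22. Among sterol carriers and storage genes Ch25h, cholesterol 25-hydroxylase, rose by 2.06 ± 0.32 and Cyp46a1, cholesterol 24-hydroxylase, fell by 0.96, 2 of 12 in all. Among other droplet genes 2 of 12 fell, the perilipin Plin3 (-0.80) and Cideb (-0.71). ABC transporters had 2 of 12 lower, Abcd2, a peroxisomal fatty acid transporter (-1.31), and Abcg4 (-0.96). Receptors had 2 of 11 lower, Sorl1, a sorting receptor, and Lrpap1, a chaperone of the LDL receptor family (-0.78 each). Other apolipoproteins had 0 of 10 past the test and 2 with an unadjusted p under 0.05, beside 3669 of 15726 genes.

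At 3 and 7 days after MCAO 0 of the 110 genes in the 9 lists passed in limma. An unadjusted p under 0.05 was held by 16 and 4, beside 1499 and 412 of 15726 genes. After LPS, where 3.11% of all genes passed, 8 genes of the lists did. Acsl5, an acyl-CoA synthetase, rose by 2.57 ± 0.41 (SE; adjusted p = 0.000302 in limma) and Slc27a4, a fatty acid transport protein, fell by 0.79, 2 of 14 in the uptake list. The droplet genes Plin4 and Plin5 rose by 2.29 ± 0.56 and 0.83 ± 0.24, 2 of 12. Abca7 and Abca8a fell (-0.91 and -0.85), 2 of 12 ABC transporters. Apoh, a plasma glycoprotein that binds phospholipid, rose by 0.73 and was 1 of 10 apolipoprotein genes, and Lrp8, a receptor for apoE and reelin, rose by 0.69 and was 1 of 11 receptors. The lists of lipases, nuclear receptors and sterol carriers had 0 of 12, 0 of 11 and 0 of 12 past the test, with 5, 3 and 4 at an unadjusted p under 0.05. Over the array 2572 of 15726 genes had an unadjusted p under 0.05 after LPS. Without LPS array 5, left out after the values were seen, 0 of the 10 transport genes passed as well, and 6 of the 8 list genes still passed, with Acsl5 at 2.91 ± 0.38 (SE; adjusted p = 4.23e-05 in limma) and Plin4 at 2.35 ± 0.61. Abca7 (-0.73, adjusted p = 0.0902) and Plin5 (0.85, adjusted p = 0.0540) did not, and 3 others passed there: Dagla, a diacylglycerol lipase (-1.09), Pnpla3 (-0.80) and Bscl2, the droplet assembly gene seipin (-0.76). Fatty acid oxidation had 0 of 17 past the test after LPS and 0 with an unadjusted p under 0.05, with a median fold of -0.02 beside 0.07 over all genes.

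**Figure D5:**
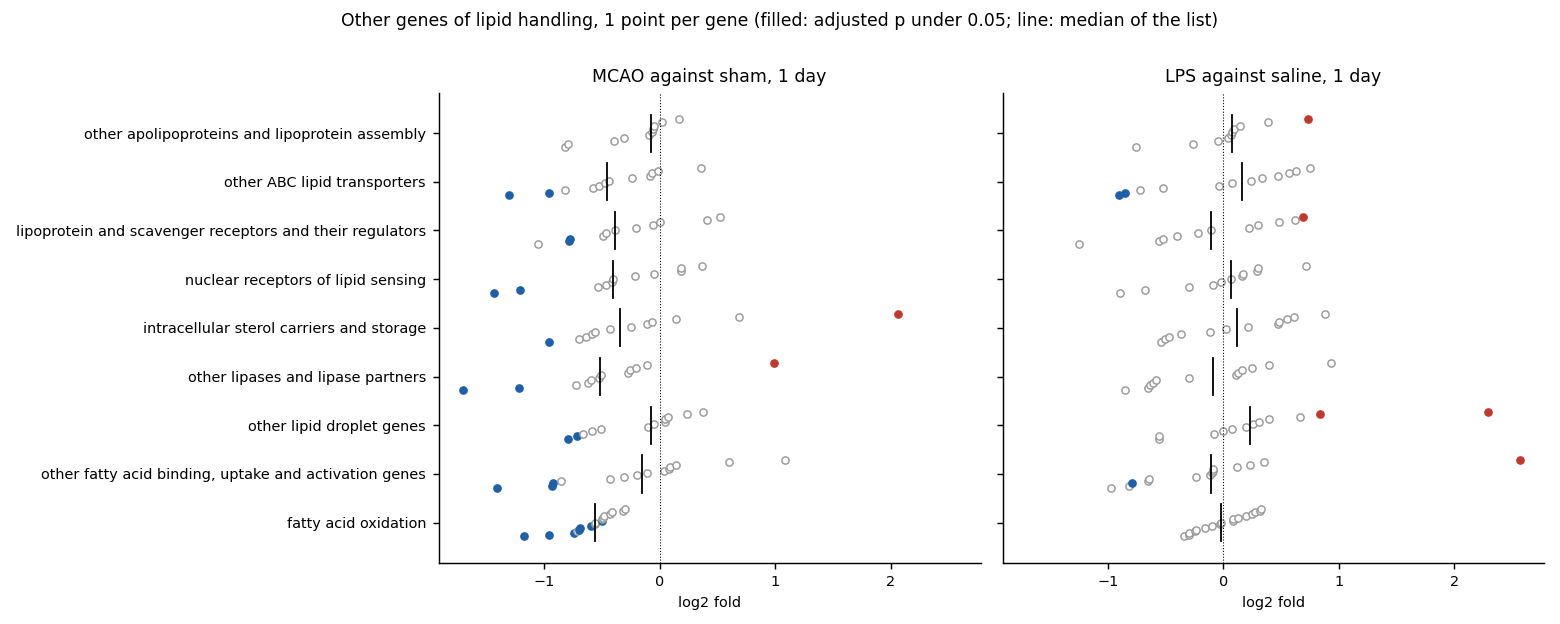
Log2 fold of each tested gene in 9 lists of lipid handling for MCAO against sham (left) and LPS against saline (right) at 1 day, with filled points past adjusted p under 0.05 and a line at the list's median. The fatty acid oxidation genes lie mostly left of 0 after MCAO (median -0.56) and around 0 after LPS (median -0.02). The medians of the other lists after MCAO also lie left of 0, from -0.52 (lipases) to -0.07 (droplet genes).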

How the data were processed

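The authors' deposited intensities were made with RMA, per the submitters' processing notes, and are whole numbers on a linear scale (9 to 35553) for 45037 probe sets. Their log2 was taken. Of the probe sets, 34945 carried 1 gene symbol, 932 several and 9160 none, and 34741 matched a RefSeq gene ID with 0 symbols changed. Per gene the probe set with the highest mean was kept, and genes at log2 5 or above on at least 3 arrays were tested. Groups came from the labels. limma 3.58.1 (R 4.3.3) fitted 1 model of 8 group means, with Benjamini-Hochberg adjustment over all genes tested and calls at an adjusted p under 0.05, and was tested on simulated data. The precision is limited by the number of arrays. The text names the 10 genes throughout, up to 3 called genes per list and comparison by size of fold, and the 3 genes most like each called gene. The genes and lists were chosen with earlier results of these data known. Alternatives were quantile normalization, the filter, the choice of probe set, array weights, the samples fitted, the replicate block, the array maximum and each array left out. No label states what the numbers in the titles and sample descriptions mark. Deviations of 1-day surgery arrays with the same description number correlated at 0.164 to 0.500 in all 4 pairs. With the description numbers as a block the same 2 genes passed. By title number the correlations at 1 day were -0.236 to 0.150. At 3 and 7 days both sets of numbers are the same, with correlations of 0.027 to 0.208 and 0.004 to 0.375. Whether arrays of a pair belong together was not tested.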

Additional observations from a re-analysis of the deposited data

Results flagged for a closer look

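The 10 genes in the groups of 4 or 5 arrays gave 40 sets of values, and 6 held a value far from the others. For 1 set alone chance gives about 1 in 20. The sets share arrays, so the count of 6 cannot be set against that rate. Abca1 was at 10.74 in LPS array 5 and Lpl at 8.73 in MCAO 1 d array 4. Plin2 was at 11.26 in MCAO 1 d array 2, the lowest of a tight group. In the saline group Apod was at 10.78 and Fabp5 at 14.53 in array 2, and Lcat was at 12.33 in array 1. The effect on Plin2 differed between injuries, with the LPS effect minus the MCAO effect at -1.70, and between days, with the MCAO effect at 7 days minus that at 1 day at -1.51, both by a test of the difference itself. The call between days was thin: it passed in 14 of 27 other settings, among them 3 of 15 with 1 array left out.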

How the results depend on the processing

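At 1 day after MCAO Plin2 and Lcat passed in each of 22 other settings, and the LPS effect minus the MCAO effect on Plin2 in each of 30. At 3 days, where 0 genes passed, 3 passed with array weights (Plin2, Abcg1, Lcat), 4 within the arrays with a maximum under 30000, and 0 to 1 with 1 array left out, the 1 being Plin2 without sham array 3. After LPS Clu was the 1 to pass with array weights (0.52, adjusted p = 0.0253). For the difference of LPS and MCAO effects 4 passed with array weights. For the effect at 7 days minus 1 day the count of 1 became 0 at adjusted p under 0.01, 3 with array weights, 3 with the compared groups alone (Plin2, Abca1, Lcat) and 0 to 1 with 1 array left out. The cause of these changes was not tested.

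The replicate block was run with both sets of numbers. With the description numbers the 3-day count was 1 (Lcat, -0.77, adjusted p = 0.0436). With the title numbers, which are the same for the 3-day arrays, that count was 0. The fits differ in the blocks of the 1-day arrays. With the title numbers the 1-day count was 3 (Abca1 at -0.55, adjusted p = 0.0228), and the count for 7 days minus 1 day was 0 (Plin2 at -1.51, adjusted p = 0.0849). Of all genes 2626 passed at 1 day with the title numbers, against 1991 without a block. The block changed no other count of these genes.

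Calls over all genes moved far more. At 1 day after MCAO 1991 genes passed, against 4329 with the description numbers as block, 5180 with the compared groups alone and 6161 with array weights. At 3 days 106 passed, against 0 with the compared groups alone, 864 with that block, 1937 with array weights and 3 to 650 with 1 array left out. At 7 days 4 passed, against 1 to 525 over other settings. After LPS 489 passed, against 65 with the compared groups alone, 1660 with array weights and 225 to 990 with 1 array left out. The differences of effects had 219, 1, 56 and 0 genes (LPS minus MCAO, 3 minus 1 day, 7 minus 1 day, 7 minus 3 days), against at most 2123, 259, 3144 and 222, each with array weights. With 1 array left out they had 89 to 472, 0 to 27, 15 to 68 and 0 to 5. Groups of 3 to 5 arrays limit what could be called, and the intensities of Lpl in LPS and saline arrays, near the filter, limit its fold there.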
